A study of Mus musculus with 11 samples.

Results

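The nucleolar ribosome biogenesis genes are 36 genes chosen by function: components of RNA polymerase I transcription, of the small nucleolar ribonucleoproteins (snoRNPs), of the pathways that assemble each ribosomal subunit, nucleolar chaperones, and the transcription factor gene Myc. Of these 36 genes, 35 were matched by Ensembl identifier to a row of the count data, which hold 37583 gene identifiers. Noc2l was not matched and enters only the search of promoters. All 35 passed the filter on low counts that left 11900 genes for testing.

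RNA was sequenced from 6 wild-type (WT) and 5 tafazzin knockout (KO) clones of mouse granulocyte-monocyte progenitors, the precursors of neutrophils and monocytes. Every line derived from C57BL/6 fetal liver at embryonic day 15.5 and carried ER-Hoxb8, a retrovirally delivered fusion of the hormone-binding part of the estrogen receptor with Hoxb8 that holds progenitors in an immature, dividing state. Medium for both genotypes held 0.5 uM beta-estradiol and stem cell factor at roughly 50 ng/ml. Each line was started from 1 cell, and the titles carry a number (1 or 2 in WT, 3 or 4 in KO) that the labels do not explain. A shared parent culture of clones with 1 number is not addressed by the labels, so the p-values speak only for the spread among these particular clones.

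Ribosomes are built in the nucleolus. RNA polymerase I copies the ribosomal DNA into a long precursor, box C/D snoRNPs methylate it and box H/ACA snoRNPs convert selected uridines to pseudouridine, while large particles cut and fold it into the small and large subunits. MYC is a well-known activator of many of these genes, and dividing progenitors need high ribosome output.

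Gene counts ranged from 21966954 to 27431544 in WT and from 19778119 to 23658158 in KO clones. Taz, which encodes tafazzin, the cardiolipin-remodelling acyltransferase, was at 39.1 ± 2.54 CPM (gene counts scaled to library size) in WT and 3.23 ± 0.685 CPM in KO clones (SD, n = 6 and 5), in the direction of the labels in all 11 clones. Progenitor markers were abundant in every clone: 12 of 12 were measured, their summed level was 13320 to 22910 CPM in WT and 12400 to 20580 CPM in KO clones, and the most abundant were Mpo, Ctsg and Cd34. Other cell type lists were detected to differing degrees, with 1 of 12 monocyte and macrophage markers (C1qa), 2 of 9 B cell (Pax5 and Ms4a1), 2 of 8 T cell (Cd3e and Cd8a), 3 of 10 fibroblast and endothelial (Col1a1, Dcn and Cdh5) and 2 of 8 hepatocyte markers (Ttr and Serpina1a) at 0 in all clones. None of the 9 mast cell and basophil, 9 erythroid and 8 megakaryocyte markers was at 0, and their summed levels over all clones were 1138 to 5027, 69.35 to 178 and 121 to 251 CPM, led by Cpa3, Tfr2 and Itga2b. Monocyte and macrophage markers summed to 834 to 2314 CPM, led by Ccr2, and fibroblast and endothelial markers to 221 to 635 CPM, led by Pecam1. Hepatocyte markers summed to 5.71 to 49.6 CPM and T cell markers to 1.23 to 6.92 CPM. B cell markers summed to 32.8 to 85.6 CPM in WT and 6.12 to 28.5 CPM in KO clones, with no overlap, and Cd79b fell from 8.55 ± 7.24 to 0.610 ± 0.216 CPM (edgeR adjusted p = 0.0170, and 0.0562 without KO 3I). The part of these cell types in the results was not tested. WT clone 2D stood apart, most of all by its late neutrophil genes, and the comparison of the genotypes without it follows the clone-by-clone results.

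Loss of tafazzin was accompanied by little change in the nucleolar genes. Of the 35 members, 1 (Nop14) was called higher in KO and 0 lower at an adjusted p under 0.05 (edgeR's quasi-likelihood test, Benjamini-Hochberg adjustment over all 11900 genes), against 5.05% of all tested genes called in either direction, 2.76% higher and 2.29% lower. At an unadjusted p under 0.05 there were 6 members, namely Nop14, Utp20, Dkc1, Rrn3, Wdr43 and Nop10, or 17.1%, close to the 20.3% of all tested genes. With DESeq2 the members called higher were Nop14 and Utp20 (5.71%) and 0 were called lower. DESeq2 called 10.6% of all tested genes in either direction and 5.38% higher. The genotypes overlapped for every member, whereas they did not overlap for 5.99% of all tested genes. The median log2 fold change was 0.05 over the members and -0.01 over all tested genes, and 25 of 35 members (71.4%) had a positive value, against 48.4% of all genes.

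The precision of the comparison was high for these abundant transcripts. The median standard error (SE) of the log2 fold change was 0.07. For 28 of 35 members the 95% interval lay within 0.3 of 0 on the log2 scale, and for 34 within 0.5, the exception being Fbl. The highest upper bound of any member was 0.41, for the small-subunit export factor Rrp12, and the lowest lower bound was -0.87, for Fbl. The interval lay above 0 for 5 members, or 14.3%, against 10% of all tested genes, and below 0 for 1 member, Nop10, against 10.3% of all genes.

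**Figure D1:**
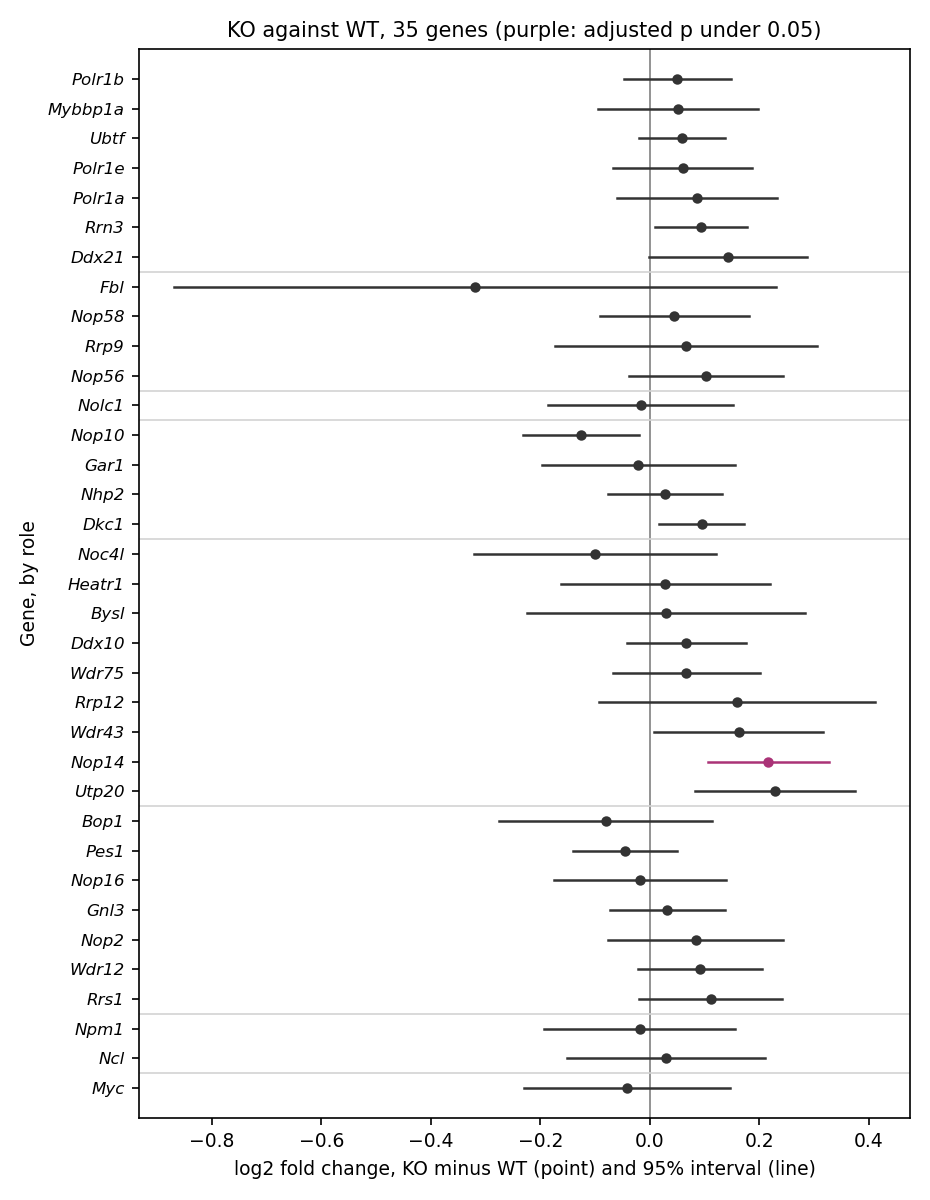
Log2 fold change of KO over WT (points, x axis) with 95% intervals (lines) for the 35 measured members, grouped by role (y axis). Nop14 (0.22) was the 1 member called, and Fbl has by far the widest interval, reaching from -0.87 to 0.23.

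Levels of the members were compared with each other per kilobase of coding sequence. Gene counts include reads outside the coding sequence, so this divisor raises genes whose coding part is a small share of their exons. Nop10 has 192 coding among 1109 exon bases, Nhp2 459 among 1146 and Ncl 2121 among 10188. The ranks between genes therefore depend on the length chosen. In WT clones the nucleolar chaperones Ncl and Npm1 were highest on this scale, at 1233 and 1114 CPM per kilobase, followed by the small H/ACA protein gene Nop10 at 964. Nhp2 followed at 394, Myc at 334 and the C/D core protein gene Nop58 at 333 CPM per kilobase. At the other end were the very long small-subunit scaffold gene Utp20, at 23.4, and Fbl, at 6.45 CPM per kilobase. Fbl encodes fibrillarin, the methyltransferase of the same C/D particles as Nop58 and Nop56 (116 CPM per kilobase), so its measured level was far under that of its partners. Fbl has near-identical copies in 2 other genes, the longest in Gm5812 (984 aligned bases at 96.8% identity, 484 counts over all clones). Reads with more than 1 match in the genome do not enter the deposited gene counts. Fbl counts were 86 to 237 per clone, and the part of the copies in that low value was not tested. Copies of at least 95% identity over 300 bases or more were also found for Ddx21, Nop56, Npm1, Pes1 and Wdr12, whose values are uncertain for the same reason. Npm1 had copies in 4 genes and Nop56 in 3.

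The promoters of the members were searched for letters that the choice of genes did not use. RefSeq's promoter table (build GRCm38.p6, 250 bases before to 50 after each start) held 30 of the 36 members. Among these 30 is Noc2l, whose expression was not measured here. The E-box CACGTG, the sequence that MYC with its partner MAX is known to bind, occurred on either strand in 6 of 30 (20%), namely Nop2, Pes1, Utp20, Wdr43, Rrn3 and Mybbp1a, against 11.9% of the tested genes in the table and 8.09% of all its genes. The GC box GGGCGG occurred in 23 (76.7%), against 69.1% and 38.2%, and the ETS-type motif CCGGAAG in 9 (30%), against 21.6% and 9.93%. Noc2l is counted in both. For each motif the share in the members was above both references, and these differences were not tested. A match describes letters in this window only. Upstream stretches of 150 bases follow, 5′ to 3′ in gene orientation, for Nop14, the member called higher, and for Nop2 and Rrn3, which carry an E-box upstream of the start. Capitals mark the GC box in Nop14 (chr5:34660229-34660378, minus strand) and the E-box in Nop2 (chr6:125131733-125131882, plus strand) and Rrn3 (chr16:13780549-13780698, plus strand).
Nop14: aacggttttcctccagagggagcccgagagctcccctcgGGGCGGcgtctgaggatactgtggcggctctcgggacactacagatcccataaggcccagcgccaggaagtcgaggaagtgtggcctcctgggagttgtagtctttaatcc
Nop2: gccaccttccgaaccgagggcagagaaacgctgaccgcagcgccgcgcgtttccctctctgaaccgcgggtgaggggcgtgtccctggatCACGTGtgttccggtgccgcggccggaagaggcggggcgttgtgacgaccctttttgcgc
Rrn3: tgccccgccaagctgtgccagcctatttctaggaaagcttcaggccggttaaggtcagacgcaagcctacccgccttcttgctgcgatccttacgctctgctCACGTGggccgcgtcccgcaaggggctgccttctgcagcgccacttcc
The Nop2 E-box begins 60 bases before the start, and Rrn3 holds a second one 215 bases before it. Nop14, the member called, held no E-box in its window, with its GC box 191 bases before the start.

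Among the genes of RNA polymerase I transcription, 7 of 7 had a positive log2 fold change (median 0.06) and 0 were called. Rrn3, the initiation factor that recruits the polymerase to ribosomal DNA, was at 137, 149.6 and 158 CPM (lowest, median and highest of 6) in WT and at 159, 163, 162, 150.2 and 159 CPM in KO 3H, 3I, 4J, 4K and 4L. KO 4K lay within the WT range, and the other 4 KO clones were above the highest WT clone, 2D. The log2 fold change of Rrn3 was 0.09 ± 0.04 (SE; edgeR adjusted p = 0.198). Ddx21, an RNA helicase that supports polymerase I transcription and rRNA processing, was at 572.5, 587.5 and 739.5 CPM in WT and at 698, 695.5, 655, 685.5 and 668 CPM in KO. WT 2D was above every KO clone, and the other 5 WT clones, at 639 CPM or less, were below every KO clone. Its log2 fold change was 0.14 ± 0.07 (edgeR adjusted p = 0.252, and 0.0142 without WT 2D). That omission was the 1 of 25 alternative settings in which Ddx21 was called. The catalytic subunit genes Polr1a (0.09 ± 0.07) and Polr1b (0.05 ± 0.04), the subunit gene Polr1e (0.06 ± 0.06), the ribosomal DNA activator Ubtf (0.06 ± 0.04) and the nucleolar MYB-binding protein gene Mybbp1a (0.05 ± 0.07) had adjusted p-values of 0.385 to 0.711 in the same edgeR test. Ubtf was the most even of them in KO clones, at 339 to 353 CPM.

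The box C/D proteins did not pass the test. Fbl was at 3.86, 5.81 and 10.2 CPM in WT and at 6.50, 5.56, 3.99, 4.99 and 4.32 CPM in KO clones. All KO values lay within the WT range, and WT 2D was highest. The log2 fold change of Fbl was -0.32 ± 0.25 (edgeR adjusted p = 0.519). Rrp9, the protein of the U3 particle that starts cleavage of the precursor, was at 64.0, 69.9 and 102.5 CPM in WT and at 83.0, 77.9, 78.3, 73.3 and 81.6 CPM in KO. WT 2D was the highest of all clones, and 4 of the 5 KO clones were above the next WT clone, 1A, at 77.1 CPM. Its log2 fold change was 0.07 ± 0.11 (edgeR adjusted p = 0.786). The core proteins Nop56 (202 ± 20.03 CPM in WT, 217 ± 7.51 in KO) and Nop58 (444 ± 42.7 and 458 ± 14.9) had log2 fold changes of 0.10 ± 0.06 and 0.05 ± 0.06. Nolc1, a chaperone of snoRNPs in the nucleolus, was at 406 ± 49.5 CPM in WT and 401 ± 17.6 CPM in KO clones (-0.02 ± 0.08).

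Within the 4 box H/ACA proteins the values went in different directions. Dkc1, the X-linked gene of the pseudouridine synthase dyskerin, was at 316, 319 and 345 CPM in WT and at 368, 348, 334, 338 and 336 CPM in KO. Only WT 2D reached into the KO range, and the next WT clone was at 321 CPM. The log2 fold change of Dkc1 was 0.10 ± 0.04 (edgeR adjusted p = 0.153). Nop10, the smallest protein of the particle, was at 167, 189 and 196 CPM in WT and at 165, 167, 180.2, 161 and 175 CPM in KO. KO clones 4K, 3H and 3I were the lowest of all, and WT 2E and 1C lay within the KO range. Its log2 fold change was -0.13 ± 0.05 (edgeR adjusted p = 0.172), the lowest of the 4. Gar1 (-0.02 ± 0.08) and Nhp2 (0.03 ± 0.05) lay between these.

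The small-subunit genes held the 1 call, with 8 of 9 positive and a median of 0.07. Nop14, a component of the small-subunit processome, the particle that forms on the nascent precursor, was at 101, 107 and 119.8 CPM in WT and at 131, 126, 131, 119 and 129 CPM in KO. KO 4K lay just below WT 2D, the highest WT clone, and the other 4 KO clones were above all WT clones. Nop14 was 16.2% higher in KO, a log2 fold change of 0.22 ± 0.05 (95% interval 0.11 to 0.33, edgeR adjusted p = 0.0354). The call was lost on omission of any 1 of 8 clones (WT 1B, 1C, 2E and 2F, KO 3H, 3I, 4J and 4L, adjusted p from 0.0546 to 0.0832), and the direction was kept. Nop14 shares 144 exon bases with the opposite-strand gene Gm15522, and counting that ignores strand cannot tell reads in these bases apart. Whether such reads were set aside as ambiguous or counted for Nop14 was not tested.

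Utp20, a long scaffold protein of the same particle, had a larger estimate with a larger error. It was at 167, 197.5 and 218 CPM in WT and at 227, 226, 239, 212 and 242 CPM in KO. WT 2D exceeded KO 4K, and all other WT clones were at or below 209.9 CPM, lower than every KO clone. The log2 fold change of Utp20 was 0.23 ± 0.07 (edgeR adjusted p = 0.0748), and the adjusted p was 0.0162 with DESeq2 and 0.0365 with edgeR without WT 2D. Utp20 was called in only these 2 of the 25 alternative settings (highest adjusted p = 0.436, with edgeR without title number 4).

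Wdr43, a subunit of the early-binding t-UTP complex that links transcription to processing, was at 235, 252 and 305 CPM in WT and at 307, 293, 294, 266 and 303 CPM in KO. WT 2D and 1A lay within the KO range and the other 4 WT clones were below it. Its log2 fold change was 0.16 ± 0.07 (edgeR adjusted p = 0.221). Rrp12 was at 95.3, 104 and 148 CPM in WT and at 133, 126, 132, 116 and 126 CPM in KO, with WT 2D and 1A within or above the KO range and the other 4 WT clones below it. Its log2 fold change was 0.16 ± 0.11 (edgeR adjusted p = 0.475). The other t-UTP genes, Wdr75 (0.07 ± 0.06) and Heatr1 (0.03 ± 0.09), the helicase gene Ddx10 (0.07 ± 0.05) and the late assembly factor gene Bysl (0.03 ± 0.11) were nearer to 0. Noc4l, the partner of Nop14 in the particle, had the negative value of the group, at 117 ± 15.7 CPM in WT and 109.5 ± 12.7 CPM in KO (-0.10 ± 0.10, edgeR adjusted p = 0.629).

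**Figure D2:**
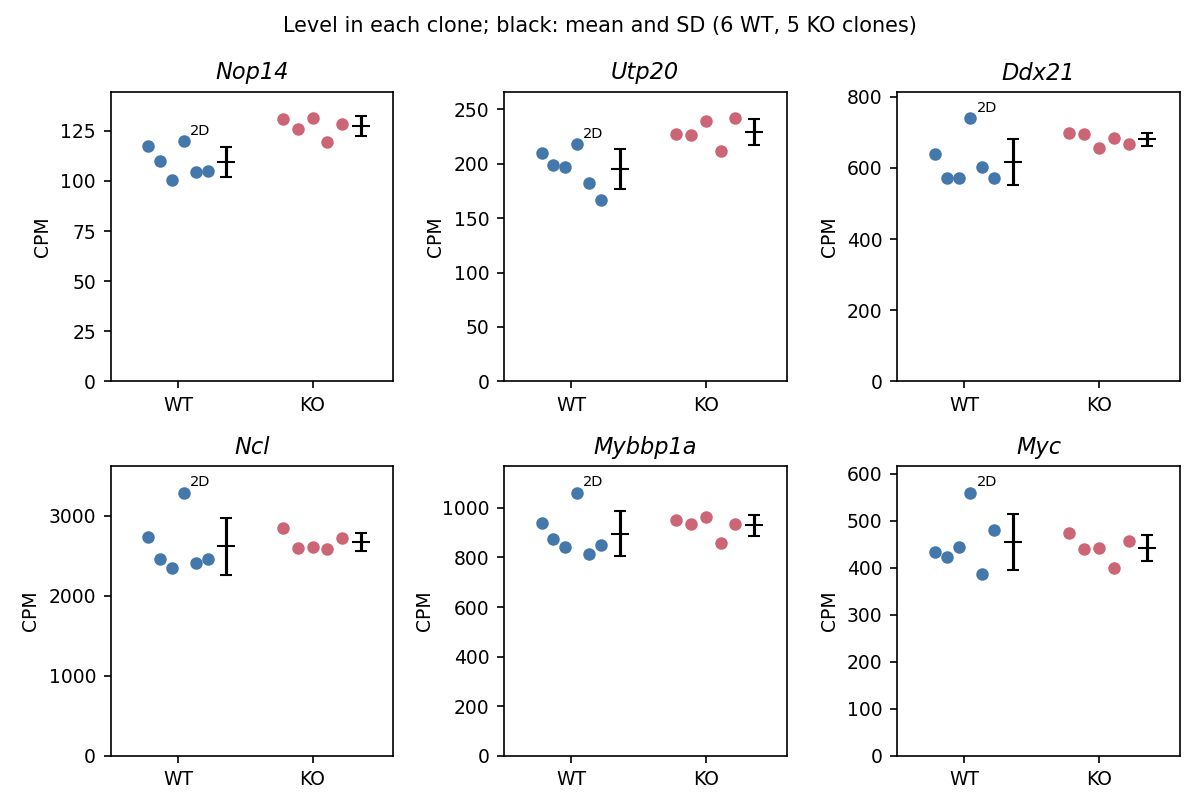
Level in CPM (y axis, from 0) of 6 members in each WT (blue) and KO (red) clone, with the mean and SD of each genotype in black and WT 2D labelled. For Nop14, Utp20 and Ddx21 all WT clones but 2D are below every KO clone; for Ncl, Mybbp1a and Myc the KO clones lie inside the WT range.

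The large-subunit genes were split, with 4 of 7 positive, a median of 0.03 and 0 called. Bop1, Pes1 and Wdr12 encode the PeBoW complex, which is needed to process the large-subunit rRNA. Their log2 fold changes were -0.08 ± 0.09, -0.05 ± 0.04 and 0.09 ± 0.05 (edgeR adjusted p = 0.662, 0.603 and 0.350), so the estimates for the 3 genes of 1 complex differed in sign, and each interval included 0. Rrs1, which helps to bring the 5S ribonucleoprotein into the large subunit, was at 101.5, 107 and 129 CPM in WT and at 126, 120.5, 119, 115.5 and 116 CPM in KO. WT 2D was above every KO clone and the other 5 WT clones were below every KO clone. The log2 fold change of Rrs1 was 0.11 ± 0.06 (edgeR adjusted p = 0.328, and 0.0454 without WT 2D). Rrs1 too was called in only that 1 of the 25 alternative settings. The rRNA methyltransferase gene Nop2 was at 187 ± 19.6 CPM in WT and 199 ± 12.7 CPM in KO (0.08 ± 0.07), Gnl3, which encodes the nucleolar GTPase nucleostemin, at 237 ± 16.7 and 242 ± 5.96 CPM (0.03 ± 0.05), and Nop16 at 116 ± 12.1 and 114.5 ± 6.81 CPM (-0.02 ± 0.07).

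The nucleolar chaperones differed little between genotypes. Ncl, which encodes nucleolin, a binder of the rRNA precursor, was at 2348, 2457 and 3288 CPM in WT and at 2845, 2592, 2606, 2588 and 2724 CPM in KO. All KO clones lay inside the WT range, and WT 2D was the highest of all. Its log2 fold change was 0.03 ± 0.08, with a 95% interval of -0.15 to 0.21. Npm1, which encodes nucleophosmin, was at 861, 963 and 1143 CPM in WT and at 1062, 934, 976, 865 and 983 CPM in KO (-0.02 ± 0.08, interval -0.19 to 0.16). All KO clones again lay inside the WT range.

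Myc itself was at 387, 438.5 and 560.0 CPM in WT and at 473, 439, 441, 399 and 457 CPM in KO. WT 2D was the highest and WT 2E the lowest clone, and all KO clones lay between them. The log2 fold change of Myc was -0.04 ± 0.09 (95% interval -0.23 to 0.15, edgeR adjusted p = 0.830). Of 10 tested genes for partners and antagonists of MYC, 1 rose and 1 fell (20% called, against 5.05% of all tested genes). Mxd1, an antagonist that competes for the partner MAX, was at 19.4, 24.4 and 27.5 CPM in WT and at 15.5, 16.01, 14.3, 17.8 and 16.2 CPM in KO, with no overlap. It fell by 0.56 ± 0.10 on the log2 scale (edgeR adjusted p = 0.00991), and stayed called when any 1 of the 11 clones was left out, but not without title numbers 2, 3 or 4 (highest adjusted p = 0.197). Mga, a MAX partner that represses E-box genes, rose by 0.21 ± 0.05 (edgeR adjusted p = 0.0391), a call kept only without WT 2D or 2E among omissions of 1 clone (highest adjusted p = 0.0948). Max (-0.01 ± 0.05) and Mnt (0.01 ± 0.09) were near 0, and Mxi1 was at -0.28 ± 0.15 (edgeR adjusted p = 0.326).

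Clone by clone, the members moved as a block and the largest differences were among WT clones. The mean centred log2 CPM of the 35 members was 0.05, -0.07, -0.12, 0.21, -0.12 and -0.08 in WT 1A, 1B, 1C, 2D, 2E and 2F. In KO 3H, 3I, 4J, 4K and 4L it was 0.08, 0.02, 0.04, -0.05 and 0.04. WT 2D was the highest clone and WT 2E and 1C the lowest, with all KO clones between them. The WT clones spanned 0.33 and the KO clones 0.12 on this scale, while the difference between the genotype means was 0.05. Without WT 2D, an omission chosen after its values were seen, the WT clones spanned 0.17.

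**Figure D3:**
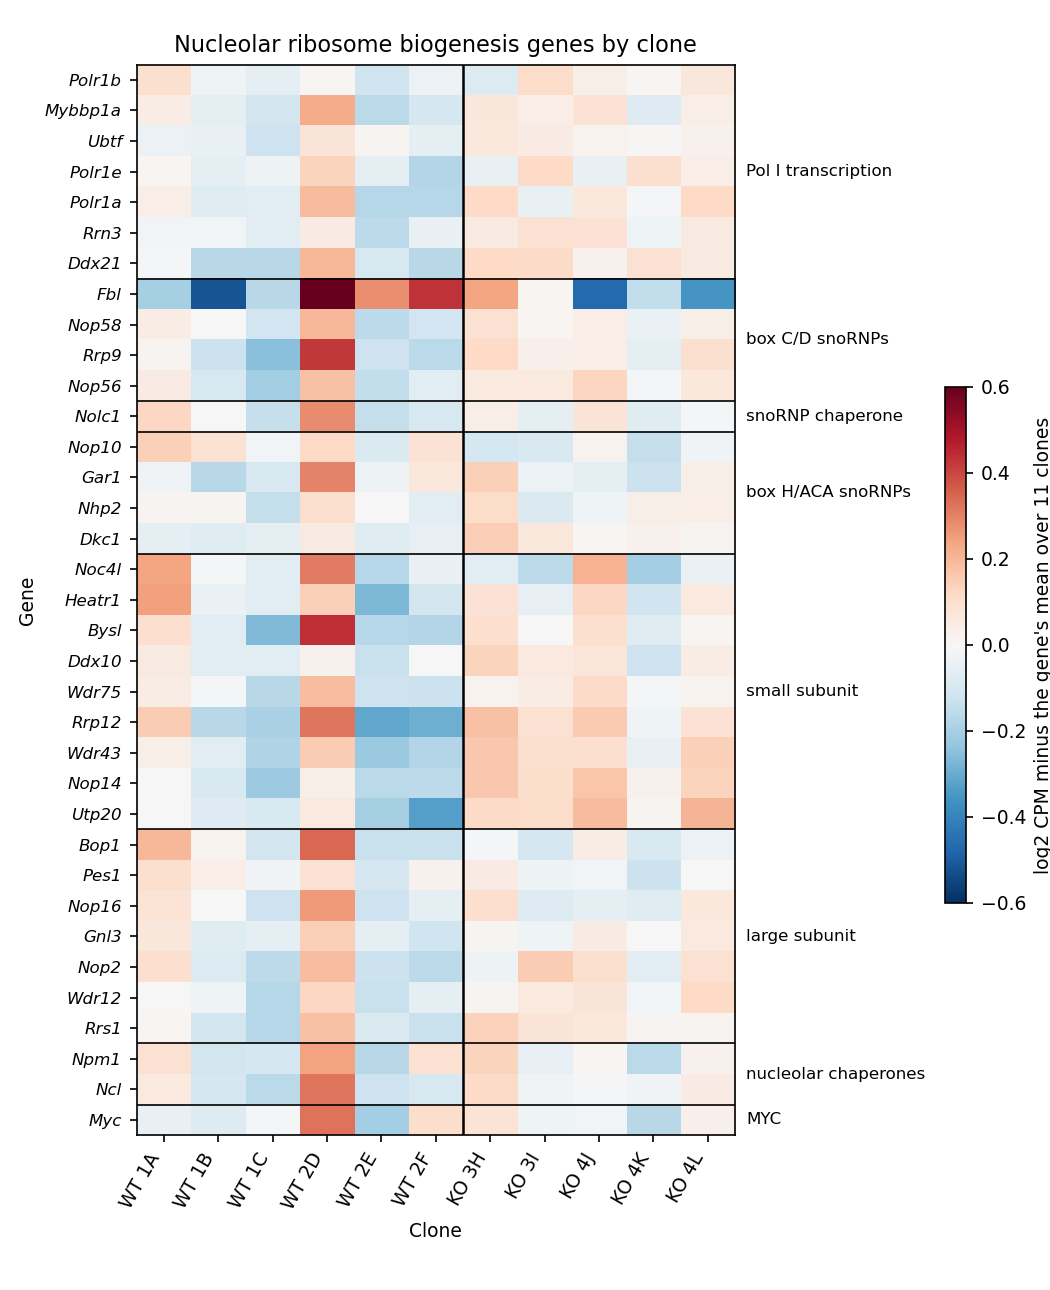
Log2 CPM of each member (rows, by role) in each clone (columns), minus the gene's mean over 11 clones, with red higher and blue lower. Colours stop at 0.6 in either direction, which 1 value passes (Fbl in WT 2D). WT 2D is red in nearly every row, WT 1C and 2E are mostly blue, and the KO clones are paler.

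WT 2D was above the mean of the 11 clones for 35 of 35 members and the highest clone for 24 of 35 (68.6%), whereas it was the highest clone for 20.8% of all tested genes. It was the highest clone for 5 of 7 polymerase I genes, 4 of 4 box C/D genes, 6 of 7 large-subunit genes, both chaperone genes, Nolc1 and Myc, but for 1 of 4 box H/ACA genes, Gar1, and 4 of 9 small-subunit genes. At the low end, WT 2E was the lowest clone for 13 of 35 members, against 10.35% of all tested genes. WT 1C was the lowest for 11 of 35, against 6.605% of all genes. Bysl, at 56.9 CPM in WT 1C and 92.8 CPM in WT 2D, spanned 1.63-fold across WT clones and 1.13-fold across KO clones. The median span over the members was 1.29-fold in WT and 1.12-fold in KO.

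The spread between clones was larger in WT than in KO for most members. The SD of log2 CPM was larger in WT for 32 of 35 members (91.4%), against 66.7% of all tested genes. Without WT 2D it was larger for 29 (82.9%), against 55.6%. The median SD of the members was 0.140 in WT, 0.0879 in WT without 2D, and 0.0698 in KO, and over all tested genes these were 0.164, 0.139 and 0.127. For 24 of 35 members (68.6%) all KO clones lay inside the WT range, against 27.9% of all genes. The difference in spread itself was not tested.

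Members co-varied within the genotypes. Over the 595 pairs of members the median Pearson r of deviations from the genotype means was 0.71 (11 clones), and 98.7% of pairs were above 0. Without WT 2D the median was 0.55 and 86.9% were above 0. These values share libraries and their scaling, and they are descriptions. Pairs of other genes were not examined in this way, so the values do not show a trait particular to the members. Mybbp1a (r = 0.98 with the mean of the other members), Bysl (0.98) and Ncl (0.97) followed the block most closely, and Polr1b (0.37), Fbl (0.39) and Polr1e (0.48) least.

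WT 2D also stood at an end of most marker lists. The 13 listed late neutrophil markers, none at 0 in all clones, summed to 1676 CPM in WT 2D. They summed to between 74.8 and 189.8 CPM in the other WT clones and to between 117 and 284 CPM in KO clones. Over the 8 tested late neutrophil markers the mean centred log2 CPM was 4.25 in WT 2D and between -2.36 and 1.56 in the other 10 clones. Across the 11 clones this mean had a Pearson r of 0.73 and a Spearman rho of 0.66 with the mean of the members. For deviations from the genotype means r was 0.86 (11 clones). Without WT 2D and 2E, the clones farthest from the median of the markers, r over both genotypes was 0.33 and rho 0.38 (9 clones). The relation over both genotypes therefore rests on those clones. WT 2D further had the highest summed progenitor (22910 CPM) and B cell markers (85.6 CPM) of the 11 clones and the lowest summed monocyte and macrophage (834 CPM), mast cell and basophil (1138 CPM), erythroid (69.35 CPM) and fibroblast and endothelial markers (221 CPM). WT 2E and KO 4K, with low member means, had 13320 and 12400 CPM of progenitor and 4087 and 5027 CPM of mast cell and basophil markers, and KO 3I, with a member mean of 0.02, had 13460 and 4621 CPM. The part of these marker genes in the member values was not tested, and in such bulk samples more cells of a kind cannot be told apart from more RNA per cell.

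Myc and the mean of the other 34 members had a Pearson r of 0.71 and a Spearman rho of 0.42 over the 11 clones. For deviations from the genotype means r was 0.78 (11 clones). Without WT 2D and 2E, the clones farthest from the Myc median, r over both genotypes was 0.16 and rho 0.03 (9 clones). This relation over both genotypes also rests on those clones. WT 2F had the second highest Myc (481 CPM) with a low member mean (-0.08).

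**Figure D4:**
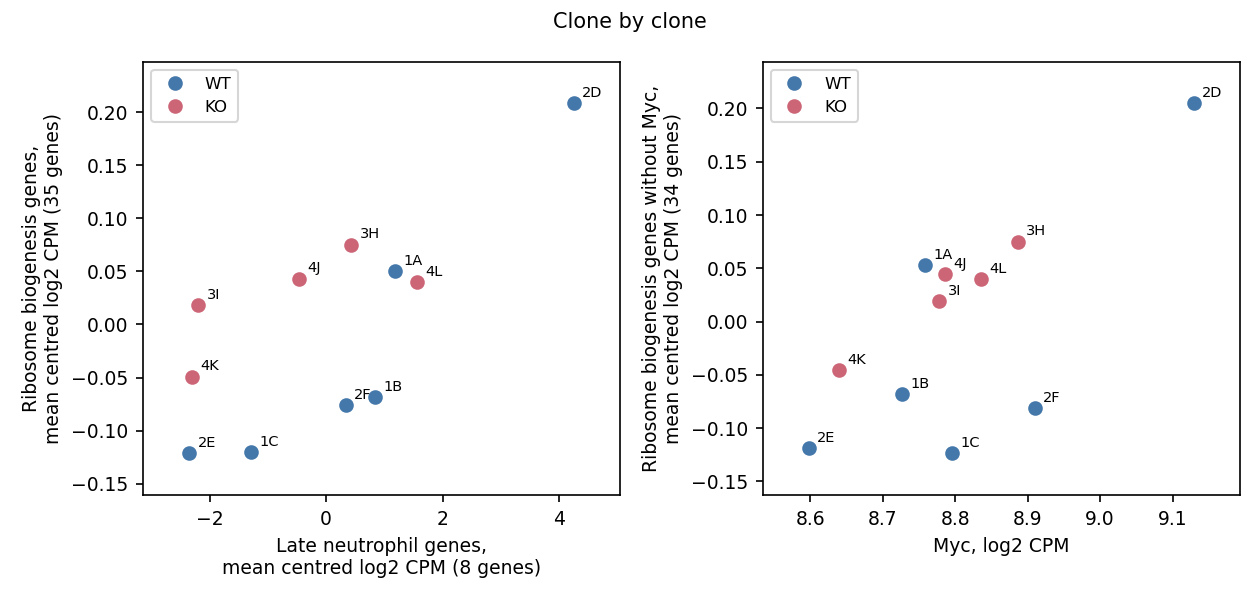
Mean centred log2 CPM of the members (y axes) against the late neutrophil marker mean (left) and against Myc log2 CPM with Myc left out of the mean (right), 1 labelled point per clone, WT blue and KO red. WT 2D is at the upper right of both panels (member mean 0.21), apart from the other 10 clones.

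Leaving WT 2D out, an omission chosen after its values were seen, changed the count of calls. WT 2D was above the mean for 35 of 35 members, so its omission was bound to raise their values as a group. The shares beside all tested genes are therefore descriptions only. Without the low clone WT 2E, 0 members were called (4.98% of all tested genes). There 4 members (11.4%) were at an unadjusted p under 0.05, against 22.25% of all genes, and the median was 0.03. Without WT 2D, 4 of the 35 members were called higher (11.4%) and 0 lower, against 6.25% of all tested genes called in either direction and 3.54% higher. Ddx21 rose by 0.20 ± 0.04 (edgeR adjusted p = 0.0142), Nop14 by 0.24 ± 0.05 (0.0145), Utp20 by 0.26 ± 0.06 (0.0365) and Rrs1 by 0.16 ± 0.04 (0.0454) on the log2 scale. Dkc1 and Wdr43 were next, with adjusted p-values of 0.0531 and 0.0569 in the same test. At an unadjusted p under 0.05 there were 17 members (48.6%), against 21.8% of all genes, and 30 of 35 values were positive with a median of 0.09. The genotypes did not overlap for 5 members (14.3%), namely Nop14, Dkc1, Rrs1, Utp20 and Ddx21, against 8.54% of all tested genes. The interval lay above 0 for 16 members (11.1% of all genes) and below 0 for 1, Nop10 (-0.11 ± 0.05). Ncl was then at 0.11 ± 0.05 (interval 0.00 to 0.21), Rrp9 at 0.17 ± 0.05, Rrp12 at 0.25 ± 0.09, Bysl at 0.14 ± 0.07 and Fbl at -0.13 ± 0.21. A sign change from negative to positive occurred for 5 members that were called in neither case, namely Myc (0.03 ± 0.06), Npm1 (0.03 ± 0.07), Nolc1 (0.04 ± 0.06), Nop16 (0.04 ± 0.05) and Gar1 (0.04 ± 0.06).

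The numbers in the titles were compared within each genotype. Of the 35 members, 0 were called between numbers 2 and 1 in WT and 0 between 4 and 3 in KO by edgeR, against 0% of all tested genes in each. At an unadjusted p under 0.05 there were 2 members in WT (3.13% of all genes) and 0 in KO (1.35%). The 2 members were Fbl (0.85 ± 0.20) and Gar1 (0.21 ± 0.09), both with an edgeR adjusted p of 0.9997. The medians of the members were 0.02 and -0.03. Number 2 holds WT 2D, which was the highest clone for both genes. Without it Fbl was at 0.65 ± 0.18 and Gar1 at 0.11 ± 0.08 (edgeR adjusted p = 0.936 for both), and 2 members, Fbl and Utp20 (-0.21 ± 0.07), were at an unadjusted p under 0.05 (4.203% of all genes).

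Further genes of the same pathways had small median differences too. Over all tested genes 5.05% were called, 2.76% higher and 2.29% lower. Of 37 tested other small-subunit genes 2 rose (5.405%) and 0 fell (median 0.04). Of 44 other large-subunit genes 2 rose (4.545%) and 0 fell (median 0.04). Pwp2 and Mdn1 had larger log2 fold changes than any member. Pwp2, a scaffold of the UTP-B complex, was at 79.1, 84.8 and 99.3 CPM in WT and at 114, 112, 108, 100.4 and 106 CPM in KO, with no overlap, and rose by 0.33 ± 0.06 (edgeR adjusted p = 0.0121). Mdn1, the giant ATPase that remodels large-subunit precursors, was at 197, 226 and 258 CPM in WT and at 285, 274, 310.2, 289 and 285 CPM in KO, with no overlap, and rose by 0.36 ± 0.06 (edgeR adjusted p = 0.0121). Both stayed called when any 1 of the 11 clones was left out, but Pwp2 lost its call without title numbers 1, 3 or 4 (highest adjusted p = 0.165) and Mdn1 without any of the 4 numbers (0.259). Utp14a (0.16 ± 0.04, adjusted p = 0.0397) and Surf6 (0.22 ± 0.04, 0.0204) were the other 2 calls, and were lost on omission of any 1 of 9 clones for Utp14a (all but WT 2D and KO 4K, highest adjusted p = 0.0985) and of KO 3H, 3I or 4J for Surf6 (0.0562).

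Of 15 other polymerase I genes 2 rose (13.3%, against 2.76% of all tested genes) and 0 fell (median 0.01). They were the subunit gene Twistnb, by 0.22 ± 0.05 (edgeR adjusted p = 0.0278), and the promoter factor gene Taf1c, by 0.18 ± 0.04 (0.0404). Twistnb lost its call on omission of any 1 of 6 clones (KO 3H, 3I and 4L, WT 1B, 1C and 2F, highest adjusted p = 0.0710), and Taf1c on omission of any clone but WT 2D (0.0997). Of 12 snoRNP assembly genes 0 were called (median -0.05), the most abundant being the ATPase gene Ruvbl2 at 272 ± 51.6 CPM in WT and 271 ± 15.1 CPM in KO. Of 13 genes of the RNA exosome, which trims rRNA precursors, 1 fell (7.69%, against 2.29% of all tested genes). This was the cofactor gene C1d, lower by 0.16 ± 0.03 (edgeR adjusted p = 0.0228). It lost its call without WT 1B or KO 3I, 4K or 4L (highest adjusted p = 0.0736). WT 2D was the highest clone for 64.9% of the other small-subunit, 61.4% of the other large-subunit, 83.3% of the snoRNP assembly and 69.2% of the exosome genes.

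Genes for the proteins of the finished ribosome were measured beside those that build it, and many of them have near-identical copies that make their counts uncertain. Of 81 tested cytosolic ribosomal protein genes 22 rose (27.2%, against 2.76% of all tested genes) and 0 fell, with a median of 0.10. Rps20 rose by 0.21 ± 0.03 (edgeR adjusted p = 0.00826). On omission of 1 clone 7 to 21 genes of the list were called higher, 7 to 18 of them among the 22, and without title numbers 1, 2, 3 and 4 the list held 1, 8, 1 and 1. WT 2D was the highest clone for 9.88% of them, against 68.6% of the members. Of 41 DNA replication genes 0 rose and 11 fell (26.8%, against 2.29% of all tested genes), with a median of -0.13. Among those that fell was Lig1 (-0.19 ± 0.03, edgeR adjusted p = 0.00748). On omission of 1 clone 3 to 12 replication genes were called lower, 3 to 10 of them among the 11. Without title numbers 1, 2, 3 and 4, 0, 4, 0 and 0 replication genes were called lower, and Rps20 and Lig1 were called only without number 2 (highest adjusted p = 0.140 and 0.232). Of 22 mitosis genes 1 rose (Top2a, 0.10 ± 0.03, edgeR adjusted p = 0.0479) and 2 fell (Kif20a, -0.25 ± 0.06, 0.0412, and Cdc20, -0.26 ± 0.06, 0.0413). The median was -0.13, and 13.6% were called, against 5.05% of all tested genes. On omission of 1 clone, Top2a lost its call in 11 of 11 cases, Kif20a in all but those of WT 2E and KO 4L, and Cdc20 in all but those of WT 2D, WT 2E and KO 4L, with a highest adjusted p of 0.112. Of 19 other known MYC targets 1 rose, the mitochondrial serine enzyme gene Shmt2 (0.47 ± 0.11, 0.0323), and 1 fell, the lactate dehydrogenase gene Ldha (-0.35 ± 0.06, 0.00826). Together 10.5% of these targets were called, against 5.05% of all tested genes. The Shmt2 call was kept only without WT 2D or KO 4K among omissions of 1 clone (highest adjusted p = 0.0809), and Ldha lost its call without title numbers 1, 3 or 4 (0.211).

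**Figure D5:**
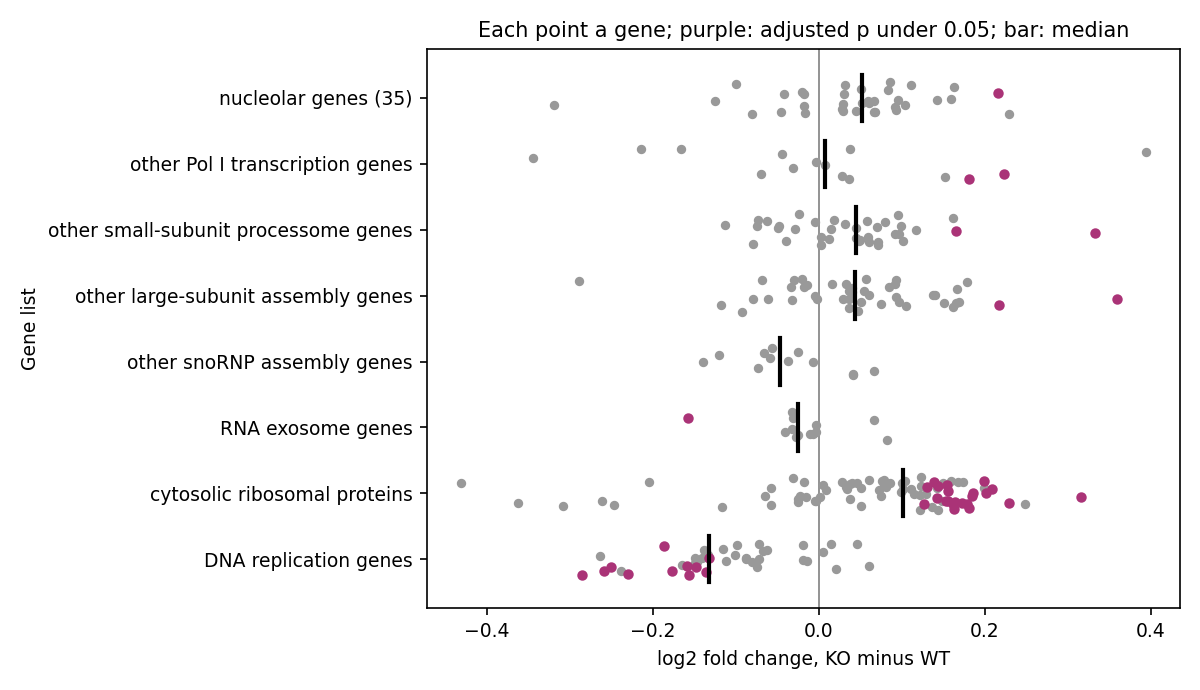
Log2 fold change of KO over WT (x axis) for each tested gene of 8 lists (rows), with called genes in purple and the median as a black bar. The 35 nucleolar genes centre on 0.05 with 1 call, the ribosomal protein genes on 0.10 with 22 and the DNA replication genes on -0.13 with 11.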

How the data were processed

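The values deposited by the authors are whole-number read counts by Ensembl gene, 1 set for each of the 11 clones, neither normalised nor pooled. Per the labels' protocols, RNA from 5 M cells was polyA-selected and made into strand-specific libraries. Per the submitters' processing notes, the tools were STAR, HTSeq and edgeR and the build mm9, all with no version. The deposited counts are marked as made without strand. In 14 members, reads in exon bases shared with an opposite-strand gene cannot be told apart from that gene's reads. Whether they fell among the ambiguous reads or entered the counts was not tested. The counter's own totals were kept out of library sizes; reads in no gene made up 5.41 to 6.94% and ambiguous reads 2.70 to 2.93%, and records that were not unique came to 82.6 to 87.6 per 100 gene counts.

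Identifiers were matched to symbols in a GRCm38 annotation (32860 of 37583, 87.4%), used only for names, coding lengths and overlaps. The genotypes were contrasted on the counts by the quasi-likelihood test of edgeR in its robust form (TMM, filterByExpr, Benjamini-Hochberg over 11900 genes). Calls needed an adjusted p under 0.05. CPM rest on library sizes scaled by TMM, and a prior count of 2 was used for log2 CPM. Each SE was obtained by dividing the size of the log2 fold change by the root of its F statistic. For Taz, a two-sided exact permutation test over 462 splits gave p = 0.00217, the smallest it can give, and edgeR gave a log2 fold change of -3.60 ± 0.14 (adjusted p = 4.08e-07). A model with a mean for each of the 4 title numbers served to compare these numbers within a genotype. The test was tried on simulated data. The lowest chi-square per gene between clones of 1 genotype was 15.0, so no pair agreed within sampling noise.

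The members and lists were chosen with earlier results of these data known, so no p over a list is given, and correlations carry no p. Beside the members, each further list gives up to 2 called genes per direction of smallest adjusted p, or its most abundant gene, and Max, Mxd1, Mxi1 and Mnt are named with any result, as are the most abundant genes of each marker list and those at 0. Some genes that this rule takes are left out of the text. Near-identical copies were sought with blastn 2.17.0. The 25 alternatives are given in the closing section. Software comprised Python 3.11.15 with matplotlib 3.10.9 and numpy 2.4.6, and R 4.3.3 with DESeq2 1.42.0, edgeR 4.0.16 and limma 3.58.1.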

Additional observations from a re-analysis of the deposited data

Results flagged for a closer look

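Among 72 groups of clones examined (each of the 35 members and their mean, in WT and in KO), 2 had a clone whose gap to the next one was large for the group's range (chance gives about 1 in 20). That is no more than this chance share, and the groups share clones. Both flags were for WT 2D. The level of the pseudouridine synthase gene Dkc1 was 345 CPM in WT 2D and 321 CPM in the next WT clone. The level of the U3 snoRNP gene Rrp9 was 102.5 CPM in WT 2D and 77.1 CPM in the next. WT 2D was set apart at the high end in this way for 2.3% of all tested genes.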

How the results depend on the processing

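The comparison of KO and WT was repeated in 25 settings: other scalings (RLE, upper quartile), no filter and a stricter one (at least 5 CPM in 5 clones), DESeq2, limma-voom, a fit without robust weights, without the 10 most abundant genes, at equal depth, with means of the title numbers, and without each title number or clone. All genes called numbered 601, 329 with no filter, 1261 with DESeq2, 307 with the set means, and 45, 296, 92 and 32 without title numbers 1, 2, 3 and 4; omission of 1 clone gave 240 to 739. Members called higher numbered 1, 0 with no filter, with the set means and without any title number, 2 with DESeq2 and 0 to 4 on omission of 1 clone, and members called lower 0 in every setting. Nop14 was called in 11 of 25 settings (log2 fold change 0.19 to 0.24, adjusted p from 0.00152 to 0.269). Of 35 members, 31 were called in none of them. Of the other lists, ribosomal protein genes called higher numbered 22, 6 with no filter, 9 with the set means and 33 with DESeq2, and replication genes called lower 11, 5, 5 and 16. Between title numbers, omission of 1 clone gave 0 to 1 genes called and 0 members. The correlation of the member mean was 0.40 with Myc and 0.47 with late neutrophil genes without WT 2D, and on omission of 1 clone it ranged from 0.40 to 0.84 and from 0.47 to 0.81. No result changed sign where it was called. No paired analysis was possible because the titles give WT and KO clones different numbers and letters. The setting with all measured members was not run, since all 35 passed the filter. Depth limits only Fbl, at 86 to 237 counts.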
